A study of Drosophila melanogaster with 33 samples.

Results

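Lola-I bound 302 places between genes that were found in both replicate libraries of wild-type *Drosophila melanogaster* embryos. These shared intergenic peaks were taken from 1750 replicate 1 peaks on the 7 chromosome arms, of which 1531 were overlapped by at least 1 bp by a replicate 2 peak. A shared peak counted as intergenic when its summit, the base with the highest signal, lay more than 200 bp from every annotated transcription start site (TSS) and outside every annotated gene, with transposable elements not counted as genes. The members were thus chosen by the authors' peak calls in both libraries and by summit position, so peak strength and distance to a TSS are given as descriptions, with no test. Of the other shared peaks, 793 had their summit at a promoter and 329 in an intron. The intergenic members numbered 59 on 2L, 51 on 2R, 56 on 3L, 80 on 3R, 5 on chromosome 4 and 51 on X, and none lay on the Y.

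The series measured chromatin binding by ChIP-seq, in which formaldehyde-fixed chromatin is sheared, precipitated with an antibody and sequenced. It holds 33 samples in 12 groups, by target (Lola-I, GAF, the RNA polymerase II subunit Rpb3, and libraries labelled WCE), genotype (wildtype:OregonR, Lola-I mutant:ORC4 and Lola-I rescue:ORC4) and age. The group used here is the pair of Lola-I libraries from whole OregonR embryos of 14 to 17 h, made with a custom rabbit polyclonal antibody against Lola-I. Each library came from many embryos together, with all their tissues, and nothing in the labels says whether the libraries came from separate collections of embryos. Replicate 1 was deposited with 1759 peaks and replicate 2 with 9674, and the read depth behind them is not known from peak lists. The series holds no Lola-I library from mutant or rescue embryos, so no such control for the antibody was available.

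Lola-I is one of many protein isoforms made from the *lola* gene by alternative splicing. The isoforms share a BTB domain, through which such proteins pair, and most carry their own zinc fingers, which read DNA. The gene is known for its role in axon guidance in the embryonic nervous system, and BTB zinc finger proteins as a family act as repressors, activators and organisers of chromatin. GAF, the GAGA factor encoded by *Trl*, is another BTB protein, which binds GAGAG repeats at promoters and enhancers. Sequence between genes can hold enhancers, silencers, insulators or promoters of transcripts that are not annotated.

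The reference sequence around the summits shows what the strongest members share. The word AAAGCT, taken from earlier results on the same lists, is in capitals, as is its other strand AGCTTT. The word TGGCGC, or GCGCCA on the other strand, is also in capitals. It was chosen after these sequences had been seen, because a longer word that holds it recurred among them. Each run is 141 bp of the plus strand of the dm6 build (RefSeq Release 6), with the summit at its centre. The first 6 are a selection from the 10 members that rank highest by score over both lists, and each is named by its flanking genes. The next lies near a tRNA gene and holds 3 copies of AAAGCT, and the last is the highest-ranked member without that word.

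nrv3 and His-Psi:CR31616, chr2L:21397364-21397504: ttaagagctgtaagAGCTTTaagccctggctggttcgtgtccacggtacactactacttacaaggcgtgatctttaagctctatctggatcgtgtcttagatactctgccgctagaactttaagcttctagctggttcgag
bab2 and CG13912, chr3L:1188937-1189077: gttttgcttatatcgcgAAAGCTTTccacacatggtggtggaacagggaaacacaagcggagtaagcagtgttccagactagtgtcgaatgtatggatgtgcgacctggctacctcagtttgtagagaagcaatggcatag
Scgdelta and prage, chrX:1772735-1772875: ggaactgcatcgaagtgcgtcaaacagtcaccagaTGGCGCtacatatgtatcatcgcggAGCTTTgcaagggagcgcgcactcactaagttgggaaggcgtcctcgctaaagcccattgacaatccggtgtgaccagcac
CG18480 and stol, chr2L:15643896-15644036: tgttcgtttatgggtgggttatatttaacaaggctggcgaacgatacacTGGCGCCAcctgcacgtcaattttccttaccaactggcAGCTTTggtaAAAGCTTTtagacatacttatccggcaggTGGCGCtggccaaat
osp and CG15282, chr2L:14706289-14706429: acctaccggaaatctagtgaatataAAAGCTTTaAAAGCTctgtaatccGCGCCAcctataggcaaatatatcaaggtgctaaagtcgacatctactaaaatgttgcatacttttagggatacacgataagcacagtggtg
Grl65a and SP1173, chr3L:6689068-6689208: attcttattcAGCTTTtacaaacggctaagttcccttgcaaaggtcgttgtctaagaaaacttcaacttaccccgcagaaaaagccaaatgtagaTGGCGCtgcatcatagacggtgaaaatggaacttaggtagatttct
tRNA:Gln-CTG-4-1 and bgm, chr2L:14011636-14011776: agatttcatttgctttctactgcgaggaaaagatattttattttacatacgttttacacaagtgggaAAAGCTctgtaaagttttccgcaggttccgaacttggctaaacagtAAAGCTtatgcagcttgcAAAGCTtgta
CG9920 and lncRNA:CR46531, chr3R:14098685-14098825: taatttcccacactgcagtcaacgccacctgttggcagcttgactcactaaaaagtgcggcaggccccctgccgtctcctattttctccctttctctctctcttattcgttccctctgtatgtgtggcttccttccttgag

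Each of the 10 highest-ranked members held AAAGCT or its other strand in the 141 bp around the summit. In several, copies on opposite strands overlapped to form the palindrome AAAGCTTT, as beside *bab2* and *osp*. TGGCGC followed AG and any base (AGNTGGCGC) beside *Scgdelta*, *stol*, *osp* and *SP1173*. These are the only 4 of the first 10 with that string, and all are shown above, so the runs shown overstate its frequency. It was at 14 of the first 100 members. The string is contained in the known recognition sequence of fly CTCF, an insulator protein. CTCF was not a target of this study. The member near *CG9920* carried neither word but a run of CT repeats, which reads GAGAG on the other strand.

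The strongest member stood first by score in both lists. It lay on 2L from 21397146 to 21397663, with its summit at 21397434, between *nrv3* (FBgn0032946), which encodes a beta subunit of the sodium pump found in neurons, and the histone pseudogene *His-Psi:CR31616* (FBgn0051616). Its fold enrichment, the authors' ratio over the peak caller's background, was 107 in replicate 1 and 561 in replicate 2, and the summits of both lists were 2 bp apart. The interval between these genes is 10861 bp long and the summit lay 4115 bp past the end of *nrv3*. The summit fell in an annotated copy of the transposable element G5. A promoter of *nrv3* also had a shared Lola-I peak.

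Several of the highest members lay between genes transcribed away from each other. Beside *bab2* (FBgn0025525), a BTB factor that patterns legs and ovaries, the fold enrichments were 56.0 in replicate 1 and 566 in replicate 2. This summit was 581 bp upstream of *CG13912* and 11731 bp from *bab2*, on 3L at 1189007. Beside *Scgdelta*, which encodes a sarcoglycan of the muscle membrane complex, the folds were 76.3 and 374, at X position 1772805, 914 bp upstream of *prage*. The member 530 bp upstream of *Glyp*, the glycogen phosphorylase gene, on 2L at 2130283, had folds of 63.8 and 414. Between *dysf*, a bHLH-PAS factor of tracheal fusion cells, and *Cipc*, the folds were 60.8 and 529, with the summit 3258 bp upstream of *Cipc* on 3R at 26103610. *Scgdelta*, *Glyp* and *Cipc* each had a shared peak at a promoter of their own as well, and *bab2*, *prage* and *dysf* did not. The summits of replicates 1 and 2 were 1 to 18 bp apart at these 4 members.

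Others of the 10 lay next to the 3′ end of a gene or far from any gene. On 2L at 15643966 the summit was 217 bp from the 3′ end of *stol*, which encodes an alpha2delta subunit of calcium channels. It ranked 32 in replicate 1 (fold 27.7) and 2 in replicate 2 (fold 432), and the nearest TSS, of *CG18480*, was 13883 bp away. On 3L at 6689138 the summit lay 189 bp past the 3′ end of *SP1173* and 3516 bp from its TSS, with folds of 60.0 and 449. The member between *osp* and *CG15282*, on 2L at 14706359, was 6112 bp upstream of the latter, with folds of 58.0 and 496. The member between the tandem pair *Rilpl* and *futsch*, on X at 1399899, had folds of 51.9 and 429. The remaining one of the 10, on 3L at 18801514, was 202 bp upstream of the noncoding RNA gene *lncRNA:CR45939*, with folds of 66.4 and 433. None of these 5 had a flanking gene with a shared promoter peak.

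Fold enrichment varied widely among the 302 members. In replicate 1 it ran from 1.91 to 107, with a median of 5.71 and quartiles of 3.57 and 12.7. In replicate 2 the overlapping peaks ran from 2.03 to 566, with a median of 49.6 and quartiles of 26.7 and 107. The scales of the lists differ, so ranks within a list are easier to compare: the median percentile of the members was 60.6 in replicate 1 and 93.8 in replicate 2, where 100.0 is the highest score. Shared promoter peaks had median folds of 4.82 and 36.2 and median percentiles of 56.0 and 92.3. Shared intronic peaks had median folds of 4.79 and 37.3 and median percentiles of 54.5 and 91.7. Of the 50 highest-scoring peaks of replicate 1, 20 were intergenic members, 18 promoter peaks and 5 intronic ones. Intergenic peaks of replicate 2 that replicate 1 lacked numbered 1199, with a median fold of 5.29 and a median percentile of 45.2.

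**Figure D1:**
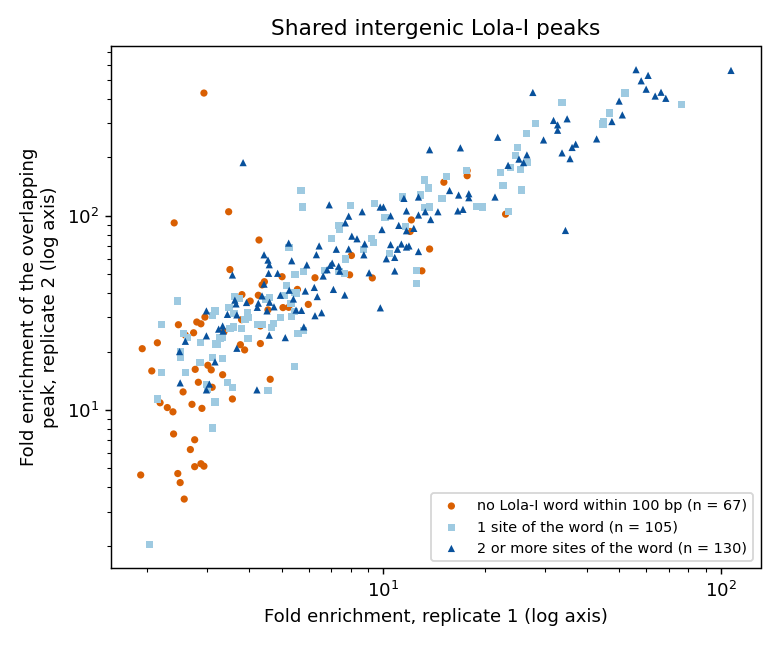
Fold enrichment of the 302 shared intergenic peaks in replicate 1 (x, log axis) against that of the overlapping replicate 2 peak (y, log axis), 1 point per member, by the number of AAAGCT sites (the Lola-I word of the legend) within 100 bp of the summit. The 67 members without the word lie mostly at low values, and the members past a fold of 50 in replicate 1 all carry it.

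The lists placed most summits at nearly the same base. The distance between replicate summits had a median of 17.0 bp, with quartiles of 8 and 33 bp, and 249 members (82.5%, 95% Wilson interval 77.8 to 86.3%) were within 50 bp. In 21 members the replicate 2 summit was more than 200 bp away, up to 940 bp, and in 10 it fell at a promoter. Each member had 1 replicate 2 partner, but some partners were wide enough to cover several replicate 1 peaks, so the 302 members had 294 distinct partners. The median width was 280 bp in replicate 1 and 523 bp in replicate 2.

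The median distance to the nearest TSS was 1092 bp, with quartiles of 465 and 3093 bp. Within 1000 bp of a TSS were 141 members, or 46.7% (41.1 to 52.3%), whereas 12.4% of all intergenic bases more than 200 bp from a TSS lay that near. The median over those 40.8 Mb of bases was 5733 bp. They span all 7 arms, the gene-poor Y and the ends near the centromeres included. Beyond 5000 bp were 45 members, or 14.9% (11.3 to 19.4%), against 53.7% of bases, and 18 members lay beyond 10000 bp. The rule itself used the distance, and with a limit of 500 bp in place of 200 bp the share within 1000 bp was 26.8% of 220 peaks.

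**Figure D2:**
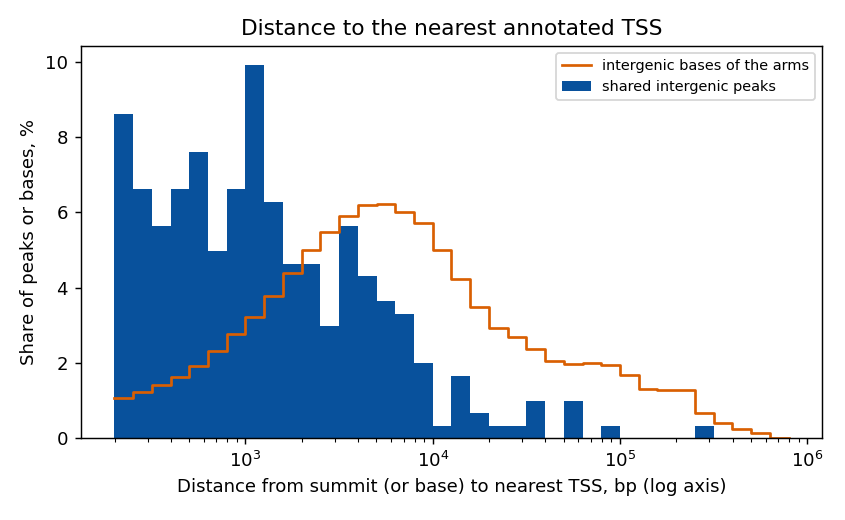
Distance from the summit to the nearest annotated TSS (x, bp, log axis) for the 302 members (bars, share of members in %) and for every intergenic base of the arms more than 200 bp from a TSS (line, share of bases in %). The members are most frequent at short distances, with a median of 1092 bp, and the bases at longer ones, with a median of 5733 bp.

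The summit was upstream of the nearest TSS in 231 members, or 76.5% (71.4 to 80.9%), and 60.0% of the intergenic bases are upstream of theirs. Among the 141 members within 1000 bp of a TSS, 132 were upstream, or 93.6% (88.3 to 96.6%), against 86.4% of the bases at that distance, since the sequence downstream of a TSS is mostly gene. The nearest TSS belonged to a protein-coding gene in 255 members, or 84.4% (79.9 to 88.1%), where 65.4% of bases had such a nearest TSS. It belonged to a noncoding RNA gene in 37, a tRNA gene in 4, a pseudogene in 3 and a snoRNA gene in 3. No member had a microRNA gene as the owner of its nearest TSS.

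Divergent gene pairs, whose promoters face each other across the interval, flanked 102 members, or 33.8% (28.7 to 39.3%), and 20.8% of intergenic bases lie in such intervals. Tandem pairs flanked 159 members, or 52.6%, against 51.0% of bases. Convergent pairs, with both 3′ ends facing the interval, flanked 39 members, or 12.9% (9.59 to 17.2%), against 24.8% of bases. Divergent intervals have more bases near a TSS by construction, and distance was not matched here. The remaining 2 members lay beyond the last gene of an arm. The interval around a member had a median length of 4100 bp, with quartiles of 1414 and 11731 bp, and the rule itself leaves out the shortest intervals.

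The peaks nearest to the 200 bp limit are given as a description. Just inside it, the summit near *T48*, a gene of gastrulation movements, was 1 bp past the limit with folds of 13 and 52.1, and that near *beat-VII* was 202 bp from its TSS with folds of 5.72 and 32.6. The one near *lncRNA:CR45939*, also at 202 bp, had folds of 66.4 and 433. Just outside, and so counted as promoter peaks, were summits 198 bp from *cib* (folds 6.85 and 44.4), 197 bp from *CG13284* (8.0 and 89.4) and 195 bp from *btd* (3.34 and 21.2). In replicate 1 the folds near *T48* and *lncRNA:CR45939* were above those of all 3 outside peaks, and the fold near *beat-VII* was among them. In replicate 2 only the fold near *lncRNA:CR45939* was above all 3, and those near *T48* and *beat-VII* were among them.

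Some flanking genes had a Lola-I peak at their promoter too. A flanking gene with a shared promoter peak was found for 74 members, or 24.5% (20.0 to 29.7%), and 7.08% of intergenic bases have such a gene beside them. At 9 members both flanking genes had one. The gene of the nearest TSS had one at 50 members, or 16.6%, and the intergenic summit was then a median of 991 bp from the promoter summit, with quartiles of 576 and 2880 bp. Over genes, 70 of the 524 flanking genes, or 13.4% (10.7 to 16.5%), had a shared promoter peak, and 4.51% of all 18277 genes of the arms. The count for members depends on how peaks are paired and placed. It was 12.0% of 192 peaks with a reciprocal overlap of at least 50%, 10.8% among the higher-scoring 50% of each list, 14.9% with a promoter limit of 100 bp, and 58.1% of 1497 peaks in the replicate 2 list alone. Promoter peaks are redefined in each of these, so fewer or more genes count as bound. The share of intergenic bases beside such a gene was not computed for these settings. Their values therefore cannot be set against the 7.08%.

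Among the genes with a promoter peak and a member beside them was *chinmo*, a BTB factor of neuronal temporal identity. A member lay 1296 bp upstream on 2L at 1649962, with folds of 15.7 and 135. At *ken*, a BTB repressor of JAK/STAT targets, the member was 618 bp upstream with folds of 4.23 and 33.8, and both *ken* and its neighbour *Mtpbeta* had promoter peaks. At *Syt1*, the calcium sensor of synaptic vesicle release, the member was 445 bp upstream with folds of 3.63 and 36.8. *Elk*, a potassium channel gene, had a member 705 bp past its 3′ end with folds of 6.96 and 55.6.

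The 524 flanking genes are 2.87% of the genes of the arms, and 445 of them, or 84.9%, encode proteins, against 76.4% of all genes. Noncoding RNA genes made up 13% of the flanking genes against 18% of all. The lists of genes below were drawn up with earlier results on these peaks known, and the counts are descriptions beside the 2.87%. Of 15 listed genes for BTB transcription factors, from the family to which Lola-I itself belongs, 5 flanked a member: *bab2*, *chinmo*, *ken*, *psq* and *rib*. The list does not cover the whole family. A BTB gene outside it, *lov*, also flanked a member, with the summit 215 bp past the 3′ end of *lov*. The share among the 15 therefore depends on which genes were listed. The folds at *psq*, which binds GAGA sequences, were 2.51 and 20.1, and at *rib*, a factor of tracheal and salivary gland shape, 4.22 and 12.7. A shared promoter peak was found at 5 of the 15, and at 4.51% of all genes. The 5 include *chinmo*, *ken* and *rib* but not *bab2* or *psq*.

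Developmental regulators and neuronal genes were counted the same way. Of 75 homeodomain, segmentation and neural selector genes, 7, or 9.33%, flanked a member. The strongest of these members lay 181 bp past the 3′ end of *ct*, the homeodomain gene of external sensory organs, with folds of 46.8 and 339 on X at 7679040. Those beside *otp* (folds 7.38 and 88.8), the Pax6 gene *toy* (8.75 and 67.3) and the head gap gene *ems* (3.37 and 25.3) were lower. The *ems* member was 301 bp from the start of its other neighbour, *E5*. The *toy* member was 9409 bp from *toy* and 1827 bp from the TSS of *fuss*. Of 66 listed genes for axon guidance and neuronal adhesion, 4 flanked a member: *kek5* (folds 7.37 and 55.0), *beat-VII*, *Fas3* (2.49 and 20.0) and the netrin receptor gene *unc-5* (3.11 and 13.1). The *kek5* member was 3728 bp from *kek5* and 1006 bp from the TSS of *nAChRalpha7*. This list is not complete. Adhesion genes outside it also flanked stronger members: *dpr17* (47.5 and 306, 9976 bp away), *DIP-theta* (31.9 and 310) and the pair *Nlg3* and *Nlg1* (21.4 and 125). The *dpr17* member was 187 bp from the 3′ end of *CG4702*. The *DIP-theta* member was 2074 bp from *DIP-theta* and 455 bp upstream of *Cyp6a16*. Other adhesion genes outside the list flanked weaker members, such as *dpr5* (5.26 and 41.4). Of 24 voltage-gated ion channel genes, *Sh* and *Elk* did, and the member 293 bp upstream of *Sh*, the Shaker potassium channel gene, had folds of 12.7 and 65.5. Of 22 genes for vesicle release, *Syt1* and the active zone gene *Rim* (2.55 and 12.4) did.

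Of 28 genes of the ecdysone response and nuclear receptors, 3, or 10.7%, flanked a member: *ImpL2*, which encodes a secreted insulin-binding protein (folds 16.7 and 128), *Hr51* and *Hr38* (2.50 and 4.23). The *ImpL2* member was 3644 bp from *ImpL2* and 382 bp from the TSS of *Sqor*. The *Hr51* member is the same one that *unc-5* flanks on its other side. The septate junction list of 23 gave *scrib* (3.68 and 30.9) and *Atpalpha*, the sodium pump's alpha subunit (3.02 and 17.0). Cuticle protein genes numbered 124, and 7 of them, or 5.65%, flanked a member. Among them were *Cpr62Ba* and *Cpr62Bb* on either side of 1 member (ranks 289 and 309), *Cpr92F* (8.65 and 105) and *TwdlC* (7.74 and 60.0). The *Cpr92F* member was 3156 bp from *Cpr92F* and 247 bp from the 3′ end of *CG4000*. The *TwdlC* member was 4555 bp from *TwdlC* and 425 bp from the TSS of *CG31076*. A shared promoter peak was found at 2 of the 124, where 4.51% of all genes have one. No gene flanked a member among 28 for muscle contractile proteins, 15 for glycolytic enzymes, 11 of the Enhancer of split complex, 21 for heat shock proteins, 260 for microRNAs, 32 for snRNAs, 33 for the vacuolar ATPase and 16 for methuselah receptors. Of 93 cytosolic ribosomal protein genes 1 did, *RpS7*, and of 237 chemoreceptor and odorant-binding protein genes 3 did. Lists of 11 to 33 genes are too short for an absence to stand out from the 2.87% of all genes that flank a member. A microRNA gene that lies inside another gene could not count as flanking. Among glycolytic genes 5 of 15 had a shared promoter peak.

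Of 295 tRNA genes, 6 flanked a member, or 2.03%, near the share of all genes. The strongest pair stood close together in rank. The member 1070 bp upstream of *tRNA:Gln-CTG-4-1*, on 2L at 14011706, had folds of 35.7 and 197, with *bgm*, an acyl-CoA synthetase gene, on its other side. The member 268 bp upstream of *tRNA:Leu-CAA-2-3*, on 3R at 23601723, had folds of 25.6 and 136. Those nearest to *tRNA:Ser-AGA-2-5* (5.93 and 55.9) and *tRNA:Val-CAC-1-1* (4.26 and 39.0) were lower. The snoRNA gene *snoRNA:Psi28S-2149* owned the TSS nearest to the member beside *RpS7* (8.35 and 76.2). Genes of snoRNAs mostly lie inside host genes, and none of them was itself a flanking gene.

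A few members lay far from any gene. The farthest was on 2R at 34063, near the end of the assembled arm, with folds of 5.58 and 24.8 and 292705 bp from the TSS of *DIP-lambda*, the nearest gene. On chromosome 4 a summit at 1318761, 47002 bp past the end of *Cadps*, had folds of 2.03 in both lists, among the lowest, and lay in an annotated HeT-A element, which belongs to the telomere repeats. Its replicate 2 summit was 295 bp away. The next were on 2R at 1150988 (folds 4.95 and 30.0), between *rl*, the MAP kinase gene, and *CR42653*, on 3R at 3374336 (9.27 and 47.9), between *spok*, a P450 gene of ecdysone synthesis, and *Parp1*, and on X at 22092881 (4.37 and 44.1). The last lay between *lncRNA:flam*, the flamenco precursor of transposon-silencing piRNAs, and *CG40813*, 50177 bp from a TSS. Including the members in G5 and HeT-A, 5 summits lay in annotated transposable elements.

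Members also came in groups within an interval. The members with a gene on each side lay in 268 intervals. There were 240 intervals with 1 member, 25 with 2, 2 with 3 and 1 with 4. The interval with 4 runs for 11731 bp on X between *Rilpl* and *futsch*, the latter the gene of a microtubule-associated protein of axons and synapses. Its replicate 1 summits lay 595, 1826, 2562 and 4368 bp from the end of *Rilpl*, with folds of 9.07, 2.94, 51.9 and 9.79. In replicate 2 the folds were 50.9, 429 and 33.6, because the peak of 429 covered both middle summits.

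**Figure D3:**
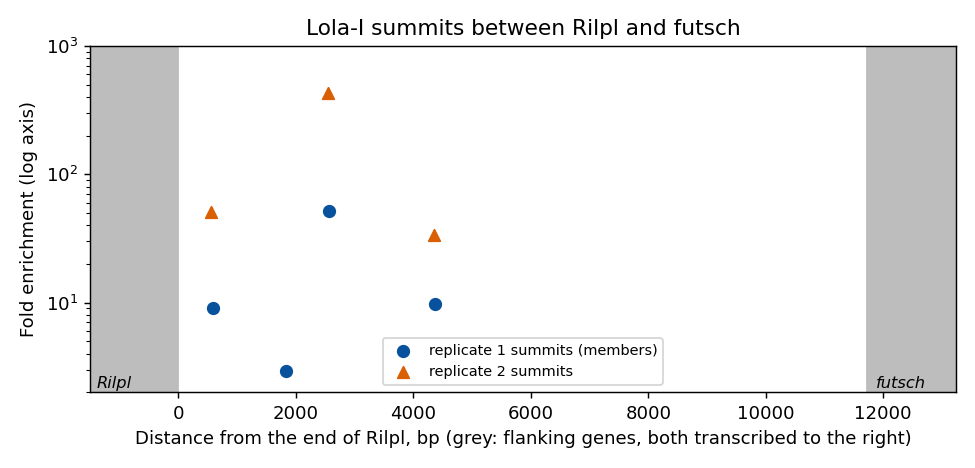
Lola-I summits between *Rilpl* and *futsch*, by distance from the end of *Rilpl* (x, bp) and fold enrichment (y, log axis), for replicate 1 (circles) and replicate 2 (triangles); the grey blocks are the flanking genes. All summits lie in the part nearer to *Rilpl*, and the highest, 2562 bp from it, reaches 51.9 in replicate 1 and 429 in replicate 2.

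Between *Atf3*, a bZIP factor gene, and *CG32812*, 3 summits had folds of 3.01, 5.04 and 5.52 in replicate 1 and of 12.7, 33.7 and 40.1 in replicate 2. The first was 1362 bp from *Atf3* and the others 975 and 261 bp from *CG32812*. Between *NijA* and *CG43245*, 75047 bp apart on 3L, 3 weak summits (2.83, 2.77 and 2.56, and 13.9, 16.2 and 24.7) lay within the same stretch, 40077 to 43271 bp from *NijA*. The intervals of *bab2* and of *dysf* each held 1 further, weaker member. In that of *bab2* it lay at the other end, 1092 bp from the gene, with folds of 2.20 and 15.6. In that of *dysf* it lay 7615 bp from the gene and 542 bp upstream of *Cipc*, with folds of 2.88 and 5.29.

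Sequence was not used to choose the members, and the words near their summits were compared with other classes. AAAGCT itself came from earlier results on the same lists. Its excess at shared peaks over tiled windows or over other peaks is therefore a description, not independent support. In windows that reach 100 bp to either side of the summit, read on either strand, AAAGCT was present at 235 of 302 members, or 77.8% (72.8 to 82.1%). It was present in 13.1% of 207591 windows tiled over the same kind of intergenic sequence, and in 14.6% and 12.6% of windows 1000 bp to either side of the members. Shared promoter peaks held it in 75.4% and shared intronic peaks in 75.1%, and all 1531 shared peaks in 75.8%. The difference from promoter peaks was 2.40 percentage points, with a 95% Newcombe interval of -3.38 to 7.73 points. From intronic peaks it was 2.74 points (-3.91 to 9.31). These intervals span 0, and they still allow differences of several points in either direction. Peaks are not replicates of embryos, so the intervals cover counting error only.

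Intergenic peaks of replicate 2 only held AAAGCT in 24.7%, which is 53.1 points (47.5 to 58.0) below the members. Those peaks are also weaker, with a median percentile of 45.2 in their list against 93.8 for the members, and strength was not matched. In the replicate 2 list alone, 35.0% of 1497 intergenic peaks held the word. Related words of earlier results were distributed alike: AAGCTC was at 53.0% of members and 7.51% of tiled windows, and AAGCTT at 49.7% and 6.02%. For AAGCTT the difference was 8.56 points (1.98 to 15.1) from promoter peaks and 2.25 points (-5.52 to 9.99) from intronic peaks. For AAGCTC it was -2.88 points (-9.47 to 3.67) from promoter peaks and 3.13 points (-4.65 to 10.9) from intronic peaks. The median GC content, 43.5% at members and 49.8% at promoter peaks, was not matched.

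**Figure D4:**
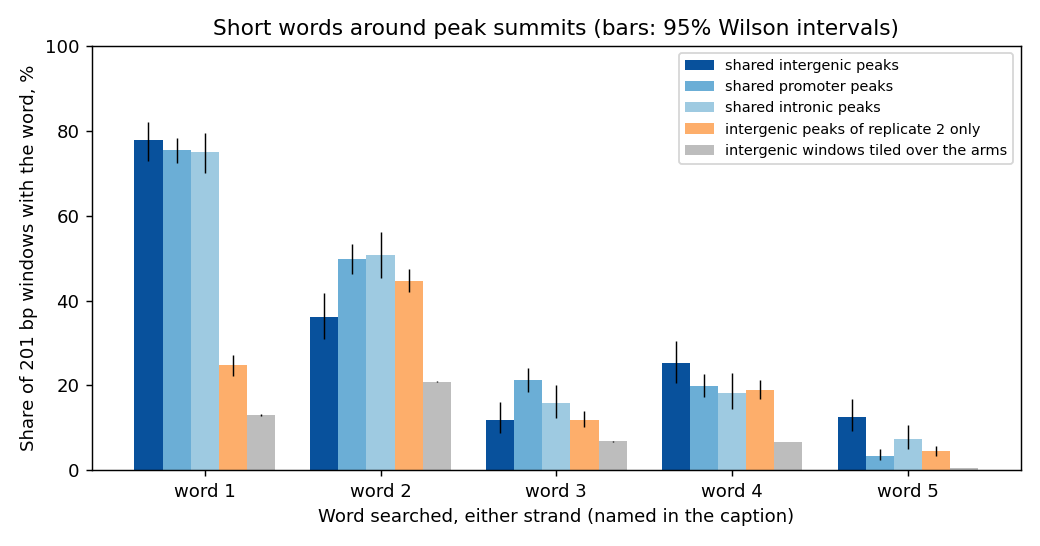
Share of windows, 100 bp to either side of the summit, that hold a word on either strand (y, %), in 5 sets of windows (colours), with 95% Wilson intervals as bars. Word 1 is AAAGCT, word 2 is GAGAG, word 3 is the E-box CAGCTG, word 4 is TGGCGC and word 5 is AGNTGGCGC, and words 4 and 5 were chosen after sequences had been seen. Word 1 is 75.1 to 77.8% in the shared classes and at 24.7% in intergenic peaks of replicate 2 only, while word 2 is lower at the members, 36.1%, than at promoter and intronic peaks.

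The number of AAAGCT sites, with overlapping copies taken as 1 site, went with the strength of the members. The 67 members with no site had median folds of 3.37 in replicate 1 and 27.1 in replicate 2. The 105 members with 1 site had 5.47 and 40.1, the 85 with 2 sites 7.37 and 63.1, and the 45 with 3 or more 9.07 and 71.7. The median percentiles in replicate 1 over the same classes were 32.7, 59.1, 71.4 and 76.8. Ordered by rank sum, the first 44 members all held the word, the first without it was the one near *CG9920* (folds 23.0 and 102), and 91 of the first 100 but 63 of the last 100 held it. In the higher-scoring 50% of each list the share was 89.7% of 185 peaks. These orders describe the same lists from which the word came, and no test was made of them.

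Copies of AAAGCT were concentrated at the summit. Counting copies on each strand separately, 285 of 501, or 56.9%, had their centre within 40 bp of it, where an even spread over the window would give 41.3%. For GAGAG the share was 109 of 251, or 43.4%. The bases beside the word also differed from the background. At the copy nearest to the summit, the base after it was C or T in 83.0%, against 49.7% of copies in tiled windows, and A in 5.53% against 23.2%. The base before was A or G in 74.5% against 57.1%. Members count only the copy nearest to the summit (235 copies), and tiled windows every copy (31530). AAAGCT came from earlier results on the same lists, as did AAGCTC and AAGCTT, which already put C or T after AAGCT. The concentration and the neighbouring bases are therefore descriptions, not independent support.

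**Figure D5:**
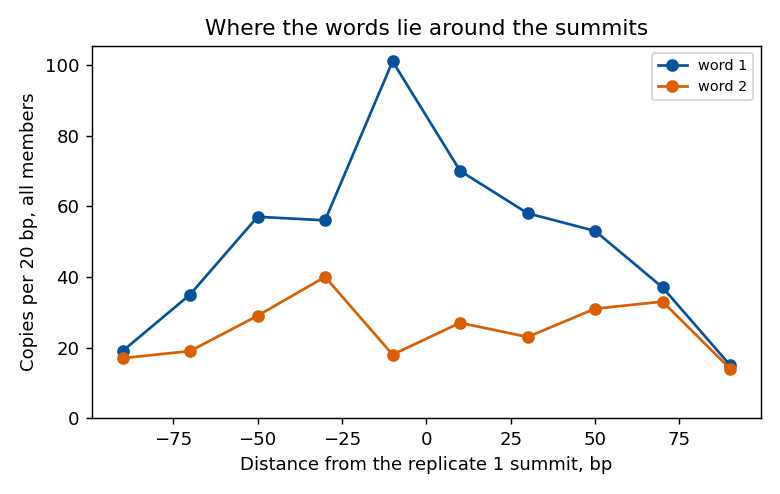
Number of copies of AAAGCT (word 1) and GAGAG (word 2) per 20 bp (y) by distance of the copy's centre from the replicate 1 summit (x, bp), summed over the 302 members. Word 1 peaks next to the summit, with 20.2 and 14% of its copies in the 20 bp on either side, while word 2 has 7.17 and 10.8% there.

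The share was also taken by distance and by orientation. AAAGCT was at 76.6% (69.0 to 82.8%) of members within 1000 bp of a TSS, at 82.8% (74.9 to 88.6%) between 1000 and 5000 bp, and at 68.9% (54.3 to 80.5%) beyond 5000 bp. By the orientation of the flanking genes it was at 71.6% (62.2 to 79.4%) in divergent, 81.1% (74.3 to 86.5%) in tandem and 79.5% (64.5 to 89.2%) in convergent intervals. These intervals overlap. Median folds in replicates 1 and 2 were, within 1000 bp of a TSS, 5.81 and 51.8, between 1000 and 5000 bp 5.90 and 46.3, and beyond it 5.26 and 36.4.

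GAGAG, the core of the GAF recognition sequence, was less frequent at the members than at the other classes. It was at 109 of 302, or 36.1% (30.9 to 41.7%), above the 20.8% of tiled windows and the 21.9% and 21.5% of windows 1000 bp to either side. Promoter peaks held it in 49.8%, a difference of -13.7 points (-20.0 to -7.16), intronic peaks in 50.8%, a difference of -14.7 points (-22.1 to -6.93), and intergenic peaks of replicate 2 only in 44.7%, a difference of -8.61 points (-14.5 to -2.39). Base composition differed too: the median GC content was 43.5% at members, 49.8% at promoter peaks and 47.3% at each of the other classes, and 40.8% in tiled windows. Its part in the difference was not tested. Members without AAAGCT held GAGAG in 26 of 67, or 38.8% (28.0 to 50.8%), and members with it in 83 of 235, or 35.3% (29.5 to 41.6%). Binding of GAF itself was not analysed here.

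Other words known from promoters were also counted. GGTCACAC, known as Motif 1 of broadly active promoters, was at 1 member (0.331%), 0.301% of tiled windows, 0.912% of intronic peaks and 4.79% of promoter peaks, a difference from the last of -4.46 points (-6.20 to -2.47). CAGCTG, an E-box, was at 11.9% of members and 21.2% of promoter peaks, or -9.26 points (-13.6 to -4.32), and at 15.8% of intronic peaks and 6.83% of tiled windows. CGATA, which lies within the DRE sequence of housekeeping promoters, was at 18.5% of members, 26.0% of promoter peaks (-7.43 points, -12.5 to -1.84), 15.8% of intronic peaks and 20.4% of tiled windows. The full TATCGATA was at 2 members (0.662%), 0.608% of intronic peaks and 2.14% of promoter peaks. CAGGTA, the word of the early embryonic factor Zelda, was at 5 members, or 1.66% (0.709 to 3.82%), and at 4.38% of tiled windows. Its difference from promoter peaks was -2.38 points (-4.24 to 0.0741).

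AGNTGGCGC, TGGCGC and AAAGCTTT were looked at only after the members' sequences had been seen. AGNTGGCGC was at 38 members, or 12.6% (9.31 to 16.8%), at 3.40% (2.35 to 4.91%) of promoter peaks, 7.29% (4.95 to 10.6%) of intronic peaks, 4.42% (3.40 to 5.74%) of intergenic peaks of replicate 2 only and 0.472% of tiled windows. Windows 1000 bp to one side of the members held it in 0 of 302 (Wilson upper bound 1.26%) and those to the other side in 3. The shorter TGGCGC was at 25.2% of members, 19.8% of promoter peaks, 18.2% of intronic peaks and 6.65% of tiled windows, and the palindrome AAAGCTTT at 23.2%, 17.4%, 24.6% and 1.05%. AGNTGGCGC was at 4 of the first 10 members, 10 of the first 50 and 11 of the last 100, and at 31 of the 235 members with AAAGCT and 7 of the 67 without. Its copies lay within 40 bp of the summit in 32 of 49 cases. Because these words were picked from the members' own sequences, no difference was tested, and a match of letters does not show that a factor was bound.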

How the data were processed

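ChIP-seq libraries of Lola-I from wild-type embryos of 14 to 17 h were used, 2 libraries with 1 deposited peak list each. The other samples were not analysed here. The authors deposited, per peak, a score, a fold enrichment (a ratio over background), a −log10 p-value, a −log10 q-value and a summit. The score equals 10 times the −log10 p-value in all 1759 and 9674 peaks. Per the submitters' processing notes, the build is dm6, and CASAVA 1.8.2 and Bowtie 1.0.0 are named with no role. The peak caller, its control and its filters are not given in the sources used here. Peaks were called per replicate, as the separate lists show, and values are comparable only within a list. Depth is unknown.

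Peaks of the 7 arms were placed on genes of Ensembl release 115 (BDGP 6.54), with sequence from RefSeq Release 6, in Python 3.11.15, NumPy 2.4.6 and matplotlib 3.10.9. The placing and word counts were tested on simulated data. Shares carry 95% Wilson intervals and differences Newcombe intervals. Alternatives were other overlap rules, promoter limits, gene sets, score limits, word windows, each list alone and the RefSeq annotation. The members, words, gene lists and tests were chosen with earlier results of these data known. Named are the 10 members of smallest rank sum, the 5 farthest from a TSS, the 5 intervals with most members, up to 5 near small RNA genes, those at the 200 bp limit and up to 4 per gene list. Not all come with both neighbouring genes, and for members named by a gene list the nearest TSS can be another gene's. *rib*, *lov*, *dpr5*, *dpr17*, *DIP-theta*, *Nlg1*, *Nlg3* and the member near *CG9920* were named after their values were seen. The p-values (−log10) of the authors were used only for ranks.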

Additional observations from a re-analysis of the deposited data

Results flagged for a closer look

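Outside the 7 chromosome arms, replicate 1 had 9 peaks, and 3 of these were overlapped by a replicate 2 peak. They drew attention because they are Lola-I signal in sequences that the comparisons leave out. One lay on an unplaced piece assigned to X, with fold enrichments of 3.57 in replicate 1 and 27.3 in replicate 2. The others lay on pieces assigned to Y, with folds of 1.62 and 3.28 and of 2.38 and 6.31. No untreated or control list was used for comparison.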

How the results depend on the processing

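Across 11 settings and 7 results, 42 of 64 alternative values stayed within a set tolerance and 22 did not. The tolerance was the 95% Wilson interval for a share, the 95% order-statistic interval for the median TSS distance (872 to 1232 bp), and within 1.5 times for the number of members. With a reciprocal overlap of at least 50% there were 192 members, 83.3% with AAAGCT and 12.0% with a flanking gene bound at its promoter. With the higher-scoring 50% of each list there were 185, and these shares were 89.7% and 10.8%, with GAGAG at 29.2%. A promoter limit of 100 bp gave a median TSS distance of 619 bp, 59.4% within 1000 bp and 14.9% with a bound flanking gene. A limit of 500 bp gave 1602 bp and 26.8%. A limit of 1000 bp gave 161 members at a median of 2721 bp and no value for the share within 1000 bp. Protein-coding genes alone gave 1364 bp and 40.1%, and no value for the protein-coding share. Windows of 50 bp to either side gave AAAGCT at 60.6% and GAGAG at 23.5%, as it holds fewer bases.

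With each list alone, the number of intergenic peaks ranged from 312 to 1497, the share with AAAGCT from 35.0% to 75.3%, with GAGAG from 35.9% to 43.3%, and with a bound flanking gene from 24.0% to 58.1%. The replicate 2 list alone, the larger one, gave 1497 peaks, 35.0%, 43.3% and 58.1%. The RefSeq annotation, added after seeing the data, gave 306 members. No paired analysis was possible because only 1 group of 2 libraries was used and no groups were compared. The cause of the other shifts was not tested. Without depth, no error could be given for a single peak.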
